A study of Rattus norvegicus with 6 samples.

Results

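The respiratory chain genes described here are nuclear genes for subunits of mitochondrial complexes I to V, 3 assembly factors of complex I and cytochrome c. They were chosen by symbol alone. Every probe whose accession mapped to a rat symbol beginning with Nduf, Uqcr, Atp5, Cox4, Cox5, Cox6, Cox7 or Cox8, or equal to Sdha, Sdhb, Sdhc, Sdhd or Cycs, was taken, which gave 62 of the 41012 gene probes on the array and 53 genes. Of these genes, 50 were above background on at least 3 of the 6 arrays and were tested. The 3 that were too dim were Uqcrq, Cox8b and Cox8c. Many other subunit genes of the rat are not analysed here, so each complex is seen only in part.

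The cells came from the bone marrow of 8-week-old male rats, were kept in osteogenic culture, and gave RNA on day 10. The 3 control samples received no treatment and the 3 LIPUS samples received low-intensity pulsed ultrasound, a mechanical stimulus given as short bursts of sound waves. No strain, dose or session length is given in the labels, and a culture of marrow cells is a mixture of stromal, bone-forming and blood-derived cells. Each sample was labelled with Cy3 and put on 1 single-colour array. The labels do not say whether samples came from separate animals or cultures, so p-values measure only the spread between these samples.

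Mitochondria make most of a cell's ATP by passing electrons along the respiratory chain. Complex I takes electrons from NADH and complex II takes them from succinate, a step it shares with the citric acid cycle. Both hand them to ubiquinone, complex III passes them to cytochrome c, and complex IV, cytochrome c oxidase, gives them to oxygen. Complexes I, III and IV pump protons across the inner membrane, and complex V, the ATP synthase, uses the returning protons to make ATP. Several subunits of complex IV exist as a broad form and as forms made mainly in certain tissues, and osteoblast cultures use both oxidative phosphorylation and glycolysis.

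A level here is the log2 spot brightness after background correction, minus the 75th percentile of its array, and a change is LIPUS minus control on that scale. Probes differ in how brightly they bind, so a difference between the levels of 2 probes, as given below for isoform pairs, has no meaning as an amount and is used only to compare arrays. Genes were called at an adjusted p under 0.05 in limma, with Benjamini-Hochberg adjustment over all 21847 genes and unnamed probes tested. Of the 50 respiratory chain genes, 2 rose, 1 fell and 47 did not pass, while 6.63% of all tested were called, 2.89% higher and 3.74% lower. The share of members called is thus close to that of the array as a whole. The 3 called genes were Cox6a2, Cox4i2 and Cox6b2. Each encodes a form of a complex IV subunit that is known from certain tissues. A total of 4 members reached an unadjusted p under 0.05, 2 in each direction, against 22.1% of all tested, 11.4% higher and 10.7% lower. Scaling sets the balance of calls over the array: 43.6% of them were higher here, 32.3% with each array minus its median, and 5.30% under scaling to spike-in probes, which moved the median of all genes from 0.03 to −0.32.

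**Figure D1:**
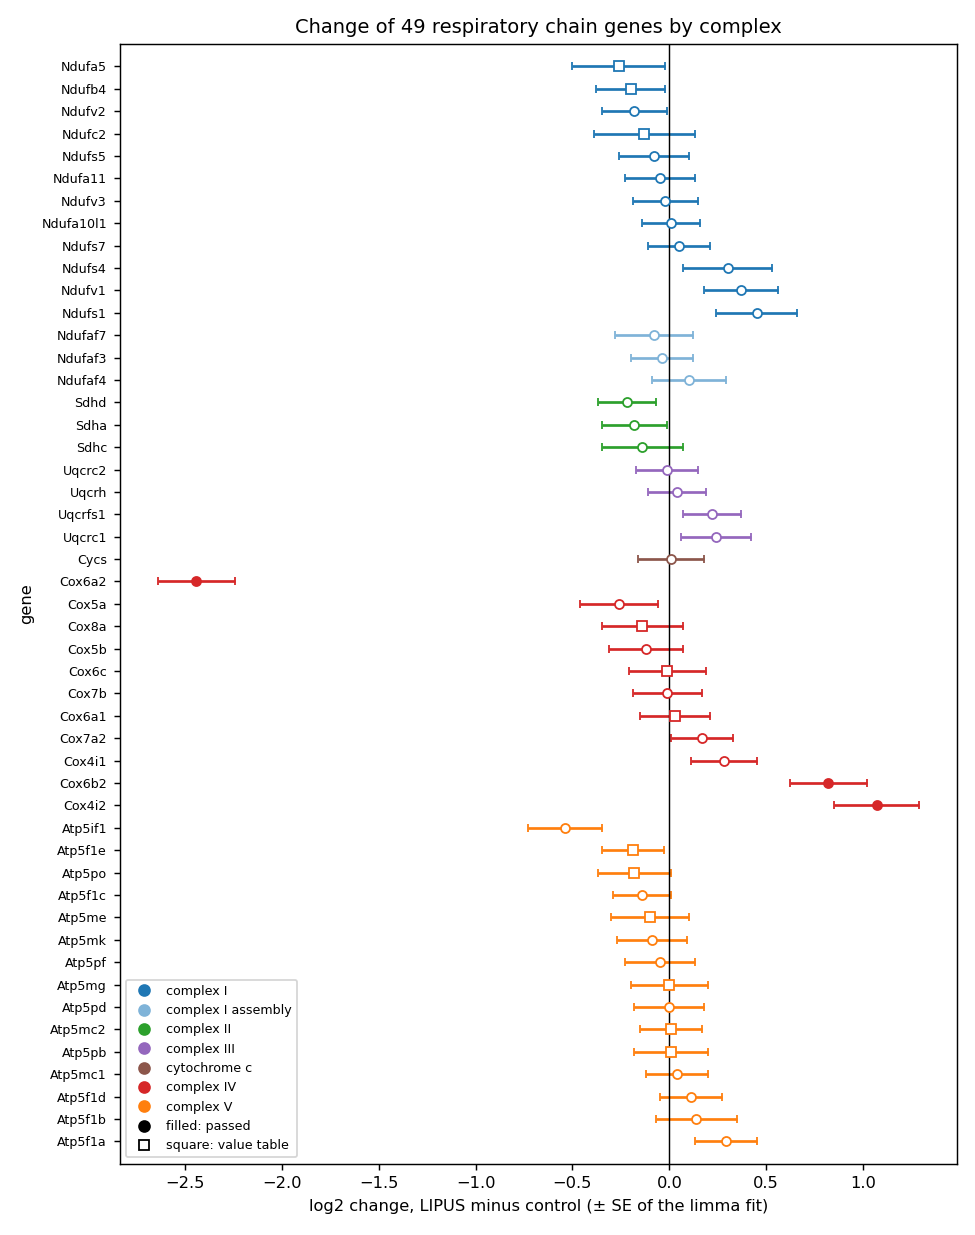
Log2 change (horizontal axis, LIPUS minus control, ± SE of the limma fit) of 49 of the 50 measured respiratory chain genes, one a row, coloured by complex. Filled symbols passed, and squares take their values from the value table because a spot reached the scanner limit. Cox6a2 at −2.44, Cox6b2 at 0.82 and Cox4i2 at 1.07 lie outside the range of −0.54 to 0.45 that holds the others.

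Cox6a2 (NM_012812), the form of subunit 6A of heart and skeletal muscle, was much lower in LIPUS. On the log2 scale it read 1.99, 2.28 and 2.31 on control arrays 1, 2 and 3 and 0.11, −0.47 and −0.39 on LIPUS arrays 1, 2 and 3. All LIPUS arrays lay well below all control arrays, and the probe was above background on all 6. The change was −2.44 ± 0.20 (SE, n = 3 each), a 5.43-fold fall (limma adjusted p = 0.0004), and ranked 8 from the lowest among the 21847 tested genes and probes. In the authors' value table, a second set of processed values of the same arrays, it fell by 2.14 ± 0.20 (limma adjusted p = 0.0129).

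Cox6a1 (NM_012814) is the broad partner of Cox6a2. Its spots reached the scanner limit on all 6 arrays, so it is read from the value table. There it read 8.30, 8.42 and 7.95 in control and 8.22, 8.22 and 8.33 in LIPUS. The groups overlapped, and the change was 0.03 ± 0.18 (limma adjusted p = 0.940), although control 1 was near the upper end of that table's range too. The difference Cox6a2 minus Cox6a1 in the value table changed by −2.17 between groups (p = 0.1 in a two-sided exact permutation test, the lowest that 3 arrays against 3 allow). It stood at −6.46, −5.94 and −5.82 in control and −8.15, −8.33 and −8.24 in LIPUS, so all LIPUS arrays lay below all control arrays. Because Cox6a1 ranged only from 7.95 to 8.42, this order followed from that of Cox6a2 and adds no further support.

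Cox4i2 (NM_053472), a form of subunit 4 known from lung and from cells short of oxygen, was higher in LIPUS. It read 1.38, 1.85 and 2.02 in control and 2.88, 2.52 and 3.05 in LIPUS. The groups did not overlap, and the lowest LIPUS array stood above the highest control array, control 3, by a smaller step than above the other 2. The rise was 1.07 ± 0.22, or 2.10-fold (limma adjusted p = 0.0191). Its broad partner Cox4i1 (NM_017202) read 3.83, 3.64 and 4.07 in control and 4.06, 4.20 and 4.13 in LIPUS and did not pass (0.28 ± 0.17, limma adjusted p = 0.369). The difference Cox4i2 minus Cox4i1 rose by 0.79, from −2.10 ± 0.33 to −1.31 ± 0.32 (SD, n = 3 each), with p = 0.1 in the same exact permutation test.

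Cox6b2 (NM_001039085), a form of subunit 6B known from testis, was also higher. It read −1.06, −0.90 and −0.88 in control and 0.12, −0.51 and 0.00 in LIPUS. The groups did not overlap, and LIPUS 2 was the nearest to the controls. The rise was 0.82 ± 0.20, or 1.76-fold (limma adjusted p = 0.0385). Its partner Cox6b1 was not analysed here, and of the listed isoform pairs only those of subunits 4 and 6A had both forms measured.

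The 3 calls differed in how firmly they stood. Cox6a2 kept its call under 18 other ways of processing the data, with changes of −2.79 to −2.14, but not against control 3 alone (limma adjusted p = 0.0803), a comparison added after seeing the data in which 0 of the 21847 tests passed. Cox4i2 passed in 12 of the 18 and lost its call with slide as a fixed block (0.80, limma adjusted p = 0.234), in the value table (0.98, 0.0845), without a filter on dim probes (0.0586), and without control 1 (0.0731), LIPUS 1 (0.0687) or LIPUS 3 (0.0742). Cox6b2 passed in 5 of the 18 and lost its call with each array minus its median (limma adjusted p = 0.0596), quantile normalization (0.0650), no filter (0.108) and slide as a random block (0.0709). It also lost it with slide as a fixed block (0.75, limma adjusted p = 0.248), in the value table (1.05, 0.0739), under spike-in scaling (0.47, 0.196) and without any 1 array except LIPUS 2 (up to 0.134). The replicate block took it to 0.0539. Against control 3 alone, the one control array that can share a slide with the LIPUS arrays, Cox6a2 read −2.56, Cox4i2 0.80 and Cox6b2 0.75. The groups did not overlap for any of these genes, so those directions were already fixed by the full comparison and add no support.

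**Figure D2:**
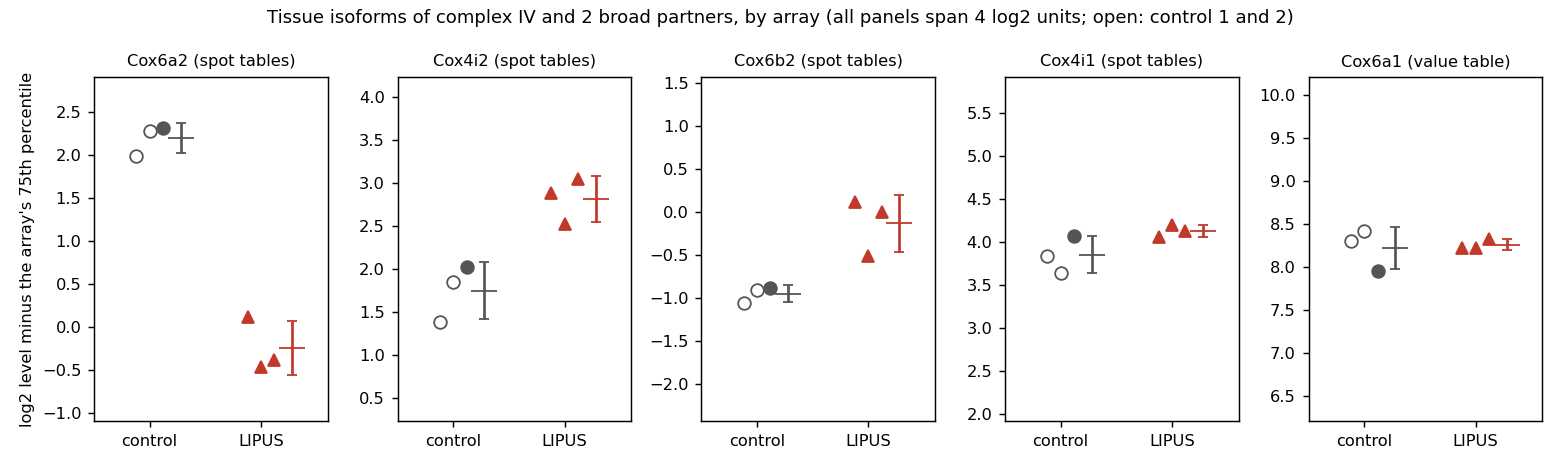
Log2 level minus the array's 75th percentile (vertical axis, each panel spanning 4 log2 units) of 3 tissue isoforms and 2 broad partners on 3 control arrays (circles, control 3 filled) and 3 LIPUS arrays (triangles), with the mean and SD beside the points. LIPUS arrays lie below all controls for Cox6a2 and above them for Cox4i2 and Cox6b2, while the groups overlap for Cox4i1 and Cox6a1.

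The sequence before the start of these genes was set beside that of the other members, to show what the genes share beyond their names. RefSeq promoter windows of assembly GRCr8, from 250 bases before to 50 bases after the start, were listed for 47 of the 53 genes, among them Cox6a2, Cox6b2, Cox8b and Cox8c but not Cox4i2 or Cox6a1. The 4 tissue isoforms held 5 to 10 CpG pairs in the window, the other 43 genes held 6 to 39 with a median of 21, and all 33469 windows of the table had a median of 7. The NRF1 motif, read on both strands as every motif here, was in 12 of the 47 windows (25.5%) and in 4.25% of all windows. The ETS motif CCGGAAGT was in 6 (12.8%, against 3.81%) and the YY1 motif AAGATGGC in 8 (17.0%, against 3.17%). At least 1 of these 3 motifs was in 22 of the 43 other genes and in none of the 4 tissue isoforms, against 10.3% of all windows. The 4 windows are too few to differ from that share, and Cox8b and Cox8c were too dim to test. The NRF1 motif itself holds CpG pairs, and the comparison with all windows was not matched for them. NRF1 and ETS proteins such as GABPA are known regulators of nuclear genes for mitochondria. A MEF2-type motif, the kind bound by a factor of muscle genes, was in 2 of the 47 windows (4.26%, against 3.84%), one of them that of Cox6a2. The hypoxia core ACGTG was in 15 (31.9%, against 19.3%) and TATAAA in 3 (6.38%, against 14.2%). A match is only a run of letters, and no binding was measured.

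The 250 bases before the start are shown for both called genes with an entry, for the broad form Cox4i1, and for Atp5mc2 and Sdha as examples with the NRF1 motif. Capitals mark matches to the 6 motifs, of which Cox6a2 has the MEF2 type 50 to 41 bases before the start, Cox4i1 the hypoxia core, and Cox6b2 none.
Cox6a2, chr1:192219717-192219966, minus strand: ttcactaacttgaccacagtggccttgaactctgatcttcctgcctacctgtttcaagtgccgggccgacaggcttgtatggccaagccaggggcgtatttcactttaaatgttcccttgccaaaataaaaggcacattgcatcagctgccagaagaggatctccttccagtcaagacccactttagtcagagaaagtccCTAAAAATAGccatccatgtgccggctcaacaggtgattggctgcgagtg
Cox6b2, chr1:78122621-78122870, plus strand: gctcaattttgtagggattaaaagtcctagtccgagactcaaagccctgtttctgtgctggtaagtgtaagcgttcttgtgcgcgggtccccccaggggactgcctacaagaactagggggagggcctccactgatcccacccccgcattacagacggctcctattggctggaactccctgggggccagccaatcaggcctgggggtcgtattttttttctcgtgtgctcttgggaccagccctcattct
Cox4i1, chr19:65630133-65630382, plus strand: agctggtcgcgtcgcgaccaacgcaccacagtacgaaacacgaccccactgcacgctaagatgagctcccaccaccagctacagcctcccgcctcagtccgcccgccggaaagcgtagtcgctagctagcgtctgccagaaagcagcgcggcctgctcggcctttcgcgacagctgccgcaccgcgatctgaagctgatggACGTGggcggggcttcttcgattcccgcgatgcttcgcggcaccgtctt
Atp5mc2, chr7:135678219-135678468, minus strand: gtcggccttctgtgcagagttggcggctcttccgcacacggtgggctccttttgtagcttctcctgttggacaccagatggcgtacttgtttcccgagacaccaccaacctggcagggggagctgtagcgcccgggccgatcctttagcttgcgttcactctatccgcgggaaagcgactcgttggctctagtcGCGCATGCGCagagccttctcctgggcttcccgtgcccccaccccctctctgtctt
Sdha, chr1:30764303-30764552, plus strand: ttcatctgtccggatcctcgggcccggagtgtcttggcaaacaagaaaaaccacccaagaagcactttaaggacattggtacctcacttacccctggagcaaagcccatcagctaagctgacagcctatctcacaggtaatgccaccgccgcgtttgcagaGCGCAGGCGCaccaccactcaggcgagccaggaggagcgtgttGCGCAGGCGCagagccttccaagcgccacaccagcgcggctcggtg
The Cox6a2 and Cox6b2 stretches hold 5 and 8 CpG pairs, and those of Cox4i1, Atp5mc2 and Sdha hold 31, 18 and 16.

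Complex I, the largest of the complexes, was represented by 13 subunits, none of which passed. With scanner-limit genes read from the value table, their median change was −0.05 and their range −0.26 to 0.45. The 5 core subunits, which carry the flavin and most iron-sulfur clusters or the ubiquinone site, had a median of 0.05 and the 8 accessory ones −0.06. The highest changes were in Ndufs1 (NM_001005550), the large iron-sulfur subunit, and Ndufv1 (NM_001006972), which binds NADH. Ndufs1 read 0.18, 0.34 and 0.86 in control and 1.02, 1.02 and 0.66 in LIPUS, a change of 0.45 ± 0.21 (limma adjusted p = 0.255). Ndufv1 read 2.37, 2.45 and 2.86 in control and 3.09, 2.68 and 3.01 in LIPUS (0.37 ± 0.19, limma adjusted p = 0.304). In both genes control 1 and 2 were low while control 3 lay within the LIPUS range, and LIPUS minus control 3 was only 0.05 and 0.07. Read from the value table, the same difference was 0.27 and 0.37, and neither gene passed there (limma adjusted p = 0.243 and 0.104). Among the accessory subunits Ndufa5 had the lowest change (−0.26 ± 0.24 in the value table, limma adjusted p = 0.582). The assembly factors Ndufaf3, Ndufaf4 and Ndufaf7 read −0.04 ± 0.16, 0.10 ± 0.19 and −0.08 ± 0.20, and none passed.

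Complex II was represented by 3 of its 4 subunits, and all read below 0 without passing. Sdha (NM_130428), the flavoprotein that oxidises succinate, read 5.91, 5.66 and 5.43 in control and 5.53, 5.48 and 5.46 in LIPUS (−0.18 ± 0.17, limma adjusted p = 0.593). The membrane anchors Sdhc and Sdhd read −0.14 ± 0.21 and −0.22 ± 0.15. For Sdhd (NM_198788) the groups did not overlap, with 4.92, 4.85 and 4.81 in control and 4.59, 4.65 and 4.69 in LIPUS, but the change was small (limma adjusted p = 0.437). Groups that do not overlap were seen for 8 of the 50 members, 4 with LIPUS above and 4 with LIPUS below, against 14.4% and 12.7% of all tested.

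Complex III was represented by 4 measured subunits with a median of 0.13. Uqcrc1 (NM_001004250), a core protein, read 1.27, 1.28 and 1.79 in control and 1.69, 1.71 and 1.65 in LIPUS (0.24 ± 0.18, limma adjusted p = 0.487), with control 3 above the LIPUS arrays. The value table did not show this: control 3 was the lowest control there, at 1.41, and Uqcrc1 changed by 0.04 ± 0.16. Uqcrfs1 (NM_001008888), the Rieske iron-sulfur protein, read 4.29, 4.24 and 4.36 in control and 4.61, 4.44 and 4.49 in LIPUS without overlap (0.22 ± 0.15, limma adjusted p = 0.447). The other core protein gene Uqcrc2 read −0.01 ± 0.16 and the hinge protein gene Uqcrh 0.04 ± 0.15. Cycs (NM_012839), which encodes cytochrome c, the mobile carrier between complexes III and IV, read 5.38, 5.15 and 4.98 in control and 5.21, 5.15 and 5.19 in LIPUS (0.01 ± 0.17, limma adjusted p = 0.976).

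The other 8 nuclear subunits of complex IV had a median of −0.01 and a range of −0.26 to 0.28, and none passed. Cox5a (NM_145783) was lowest, with 5.85, 5.77 and 5.25 in control and 5.28, 5.30 and 5.49 in LIPUS (−0.26 ± 0.20, limma adjusted p = 0.462). Here control 3 lay just below the LIPUS arrays and control 1 and 2 above them. Cox7a2, the broad form of subunit 7A, read 0.17 ± 0.16, Cox7b −0.01 ± 0.18 and Cox5b −0.12 ± 0.19. In the value table Cox6c read −0.01 ± 0.20 and Cox8a, the broad form of subunit 8, −0.14 ± 0.21.

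Complex V was represented by 15 genes with a median of 0.00, and none passed. Atp5if1 (NM_012915), which encodes the inhibitor that stops the enzyme from running backwards and splitting ATP, had the lowest change. It read 5.86, 5.70 and 5.30 in control and 5.19, 5.02 and 5.03 in LIPUS, with no overlap, and changed by −0.54 ± 0.19 (limma adjusted p = 0.125). Control 3 lay nearest to the LIPUS arrays. Atp5if1 passed without control 3 (−0.70, limma adjusted p = 0.0357) and under spike-in scaling (−0.89, 0.0115), but it read −0.22 with slide as a fixed block (0.635) and −0.35 in the value table (0.340).

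The F1 head and central stalk, which make ATP, had 5 measured genes with a median of 0.11. Atp5f1a (NM_023093), the alpha subunit, read 4.22, 4.05 and 4.40 in control and 4.56, 4.52 and 4.47 in LIPUS, without overlap (0.29 ± 0.16, limma adjusted p = 0.324). The beta subunit gene Atp5f1b read 0.14 ± 0.21, delta (Atp5f1d) 0.11 ± 0.16, gamma (Atp5f1c) −0.14 ± 0.15 and, in the value table, epsilon (Atp5f1e) −0.19 ± 0.16. The 9 genes of the membrane part and peripheral stalk had a median of 0.00 and lay between −0.18 and 0.04. Among them the rotor genes Atp5mc1 and Atp5mc2 read 0.04 ± 0.16 and, in the value table, 0.01 ± 0.16. Of the stalk genes, Atp5pd read 0.00 ± 0.18 and Atp5po, in the value table, −0.18 ± 0.19.

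A total of 12 members had a spot at the scanner limit of 65535 on 1 or more arrays, and 5 of them on all 6: Atp5f1e, Atp5mc2, Atp5me, Cox6a1 and Cox8a. A spot at the limit gives only a lower bound, and after scaling all 5 read 0.24. In the value table they read −0.19, 0.01, −0.10, 0.03 and −0.14, and none of the 12 passed there (lowest unadjusted p 0.293, in Atp5f1e), where 3.68% of all tested were called. Atp5mc2 has a further probe that stayed under the limit, and it read 0.05. The source of the values decides the balance of the whole set. With spot tables alone 29 of 50 members read above 0 and the median was 0.05, and with the value table for those 12 genes 21 of 50 did and the median was −0.01. All tested genes and probes had a median of 0.03, with 54.0% above 0.

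**Figure D3:**
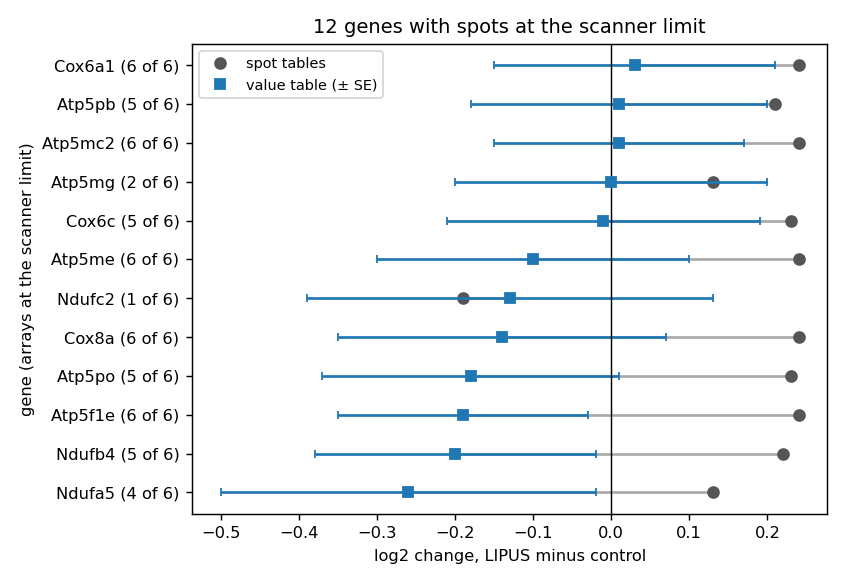
Log2 change (horizontal axis, LIPUS minus control) of the 12 genes with a spot at the scanner limit, from the spot tables (grey circles) and from the value table (blue squares, ± SE), with the number of arrays at the limit beside each name. The 5 genes at the limit on all 6 arrays read 0.24 in the spot tables and −0.19 to 0.03 in the value table.

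Genes with more than 1 probe gave a view of how far probes of the same gene read alike. The 3 probes of Cycs read 0.01, −0.19 and −0.10, the 3 of Ndufa10l1 0.01, 0.32 and 0.18, and the 3 of the assembly factor gene Ndufaf4 0.10, 0.34 and −0.19. The dimmer probes of Cox5b and Ndufc2 read −0.24 and −0.33, beside −0.12 and −0.19 for the brighter ones. With every probe tested on its own, where 6.51% were called, none of these passed (limma adjusted p = 0.280 to 0.976).

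For the 47 members that did not pass, the 95% confidence intervals from limma all lay within −0.95 to 0.92 on the log2 scale, short of a 2-fold change in either direction. That limit depends on the source of the values. When all members were read from the value table, 44 of the 47 intervals lay within 2-fold and 3 did not. These were Ndufs1 (0.65 ± 0.27), Ndufv1 (0.62 ± 0.17) and the accessory subunit gene Ndufs4, a dim probe that read −1.49 ± 1.18 there and 0.30 ± 0.23 in the spot tables, neither passing. In the first set of intervals, with the value table only for scanner-limit genes, 31 of the 47 also lay within a 1.5-fold change in either direction. For the other 16 of that set a change of 1.5-fold was not excluded, and a p that misses the threshold does not show that a level stayed the same.

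Control 3 was often the lowest control in these genes, though not in all. Among the 38 measured members under the scanner limit it was the lowest control in 21 (55.3%, against 44.6% of all tested under the limit), the highest control in 12 (31.6%, against 30.7%) and the lowest of all 6 arrays in 16 (42.1%, against 22.9%). For the 12 members at the limit, in the value table, it was the lowest control in 12 of 12 (against 45.9% of all tested there). LIPUS minus control 3 had a median of 0.10 over the 38 and 0.24 over the 12, with 0.07 and 0.02 over all tested in the same tables. By their place on the scanned slides, control 3 and the 3 LIPUS arrays can share a slide, while control 1 and 2 lay in the places of LIPUS 2 and LIPUS 3 and so cannot share a slide with those. With slide as a fixed block the median of the 50 members was 0.15 with the value table for limit genes, instead of −0.01, and 1 member, Cox6a2, was called (limma adjusted p = 0.0260), where 1.29% of all tested were. The median of all tested in the spot tables moved too in that setting, from 0.03 to 0.07. The part of the slide in these differences cannot be told apart from the difference between control samples.

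**Figure D4:**
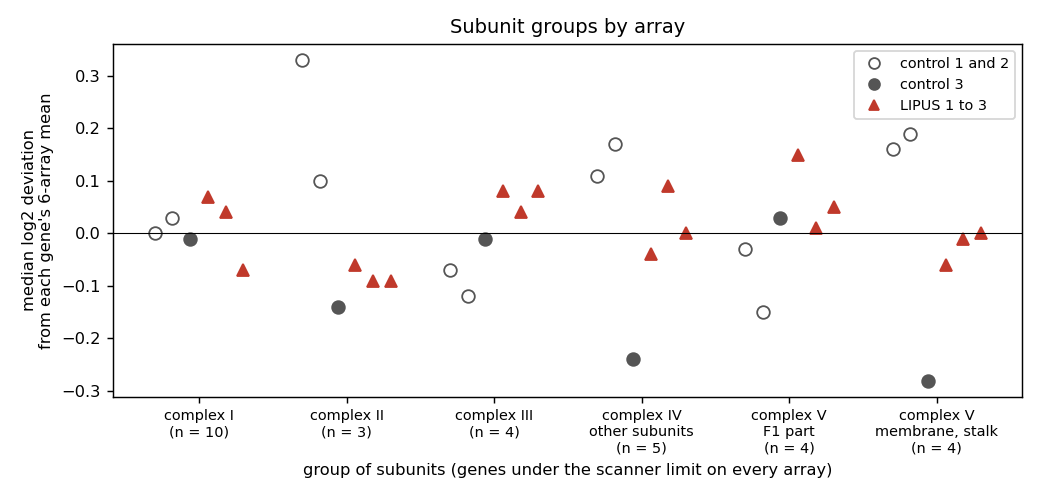
Median over genes of the log2 deviation from each gene's 6-array mean (vertical axis) for 6 groups of subunits, on control 1 and 2 (open circles), control 3 (filled circle) and LIPUS 1 to 3 (triangles). Control 3 is lowest in the membrane and stalk group of complex V, at −0.28, and in the other subunits of complex IV, at −0.24, while the LIPUS arrays lie between −0.09 and 0.15 in all 6 groups.

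Genes around the respiratory chain were read from 6 lists, with the 6.63% of all tested that were called as the background. Among 12 measured genes that feed electrons to ubiquinone or make it, 1 fell (3.74% of all tested did), 0 rose and 11 did not pass. The one that fell was Sqor (NM_001047913), which encodes the mitochondrial enzyme that oxidises sulfide. It read −0.07, −0.33 and 0.21 in control and −1.10, −1.06 and −0.99 in LIPUS (−0.99 ± 0.18, limma adjusted p = 0.0117), without overlap, but only −0.50 in the value table, where it did not pass (0.238). Of 19 citric acid cycle and pyruvate dehydrogenase genes none passed, with a median of 0.04. Fh, which encodes fumarate hydratase, had the smallest p and read −0.62 ± 0.18 (limma adjusted p = 0.0701). The cycle's entry enzyme gene Cs read −0.10 ± 0.18, a gene named after its values were seen.

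Of 7 nucleotide carriers, porins and uncoupling proteins none passed (median −0.15), and the smallest p values were those of the uncoupling protein gene Ucp2 (−0.69 ± 0.23, limma adjusted p = 0.114) and the porin gene Vdac3 (−0.26, 0.455). Of 7 regulators of mitochondrial biogenesis none passed (median 0.33), led by Gabpb1 (0.60 ± 0.23, limma adjusted p = 0.154) and Polg (0.33 ± 0.15, 0.241). In the value table these regulators had a median of 0.01, with Gabpb1 at 0.01 and Polg at −0.01. The coactivator gene Ppargc1a was too dim to test. Of 4 assembly factors of complex IV none passed, with the copper chaperone gene Cox17 at −0.41 ± 0.17 (limma adjusted p = 0.191) and Cox15 at 0.47 ± 0.22 (0.249) but −0.96 in the value table. The 2 measured assembly factors of complexes II, III and V, Sdhaf2 and Bcs1l, read 0.21 ± 0.18 and 0.17 ± 0.24.

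Markers of other cell types moved beside the 3 called genes, and in bulk RNA fewer cells of a type and less RNA per cell cannot be told apart. The marker lists were chosen with earlier results of these data known. Their counts beside the share of all tested are therefore descriptive and not an independent test. Because Cox6a2 is known from striated muscle, muscle markers were read: 10 of 23 on the array were above background, and Ckm, Myod1, Myog, Myl1 and Myl2 were not. The mean level of the 10 was −1.10 to −0.83 in control and −1.11 to −0.84 in LIPUS. Of the 10, 1 fell, the troponin gene Tnnt1 (−1.16 ± 0.18, limma adjusted p = 0.00568, but 0.224 in the value table), and 9 did not pass. The median of the 10 was 0.14, and 7 read above 0. Among those that did not pass, Actc1 went the other way from Tnnt1 (0.69 ± 0.19, limma adjusted p = 0.068), a gene named after its values were seen. Macrophage and monocyte markers had a mean level of 3.90 to 3.93 in control and 2.90 to 3.10 in LIPUS, and 9 of 17 fell while 0 rose, against 3.74% and 2.89% of all tested. Their median change was −0.88, and 5 of the 17 reached the scanner limit on 1 or more arrays, so their spot values there are only lower bounds. Markers of conventional dendritic cells, of which 1 is also in the macrophage list, ranged from 1.64 to 1.80 in control and from 0.49 to 0.64 in LIPUS, and 3 of 6 fell, with a median of −0.60. Of the 17 and the 6, 11 and 2 fell in the value table, where 2.37% of all tested did and where the macrophage median was −1.16. The lectin gene Clec10a (−2.99 ± 0.18) and the nuclease gene Dnase1l3 (−2.66 ± 0.18) had the lowest changes of these lists. Both are in the dendritic cell list, and the fall of its mean rests largely on them. Its other members read −0.67 (RT1-Da, which passed), −0.52 (RT1-Bb), −0.47 (Cd74) and, in the other direction, 0.23 (Batf3). Cox6a2 is also known as a transcript of plasmacytoid dendritic cells: of 6 measured markers of that type none passed (median −0.04), with the smallest p values in Cd4 at −0.91 ± 0.24 (limma adjusted p = 0.0504) and Pacsin1, in the other direction, at 0.97 ± 0.34 (0.126), and Ccr9 and Klk1 were too dim.

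Osteoblast markers, the cells these cultures favour, had a mean level of 3.93 to 4.0 in control and 4.68 to 4.83 in LIPUS, with 7 of 14 risen and 0 fallen, against 2.89% and 3.74% of all tested. The lists of this paragraph too were chosen with earlier results known, so these counts are descriptive only. Of the 14, 5 reached the scanner limit on 1 or more arrays and 3 on every array, and 8 rose in the value table, where 1.31% of all tested did. Adipocyte markers ranged from 3.55 to 3.69 in control and from 3.85 to 4.01 in LIPUS, with 2 of 8 risen, Cidec and Scd, of which Cidec also rose in the value table. That mean includes 2 genes with saturated spots, among them Cfd, which read 0.24 at the limit and −0.77 in the value table. Endothelial markers ranged from 0.24 to 0.32 in control and from −0.94 to −0.82 in LIPUS, with 3 of 4 fallen (Esam, Ramp2 and Icam2), of which Esam also fell in the value table. Of smooth muscle markers only Tagln was measured (−0.28 ± 0.16) and of erythroid markers only Epor (0.19 ± 0.21), and neither passed. The part of these cell types in the changes of Cox6a2, Cox4i2 and Cox6b2 was not tested.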

How the data were processed

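Single-colour arrays of 3 control and 3 LIPUS samples were analysed from the deposited spot tables. Per the file headers these give spot and local background brightness as intensity, the share of saturated pixels in percent, and spot position as a score, with no normalization. No source used here names the scanner or its software. The authors' value table holds log2 values with each column's 75th percentile at 0. That scale was read from the values, and how the authors made the table is unknown: undoing the log2 gave whole numbers, within 0.01, for 98.7% to 98.9% of probes, and the column medians were −2.37, −2.48, −2.53, −2.49, −2.62 and −2.85.

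Intensities were background-corrected with limma's normexp (offset 50), put on the log2 scale, averaged per probe and reduced by each array's 75th percentile. The fixed plan met files without Agilent's own processed columns, and its background-corrected intensity was made this way. A probe was above background where its net signal exceeded 95% of the array's 153 negative controls, and probes above it on at least 3 of 6 arrays were kept (23260). For genes with several probes the brightest on average was used. Symbols came from RefSeq accessions of assembly GRCr8. LIPUS and control were compared with limma 3.58.1 in R 4.3.3, two-sided, adjusted over all 21847 tests. Isoform differences were compared with an exact permutation test. The script was tested on simulated data, where it called 41% of genes with a true log2 change of 1 and 88% of those with 2. Slides were inferred from grid position and tilt. The number of arrays limits the precision: median spot brightness was 161 to 224, 379 to 529 gene spots per array were at the limit, and arrays correlated at 0.964 to 0.986.

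Named are all members that passed, isoform pairs, the 2 highest and 2 lowest changes of each complex, members at the limit, listed neighbours that passed (or the 2 with the smallest p), and up to 4 passing markers per list; other members are named after their values were seen. Some genes that the rule names are not reported here. Members and lists were chosen with earlier results of these data known. Figures used Python 3.11.15 and matplotlib 3.10.9. Alternatives covered background correction, scaling, the filter, the value source, probe choice, blocks and left-out arrays.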

Additional observations from a re-analysis of the deposited data

How the results depend on the processing

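The count of members that rose was 2 and depended on the processing: it was 1 with each array minus its median, quantile normalization, spike-in scaling, slide as a random block and the replicate block, and 0 without a filter on dim probes, in the value table and with slide as a fixed block (2, 4 and 2 at an unadjusted p under 0.05). At that level 2, 1 and 1 members were lower. Over all tested, 14.9%, 21.2% and 16.1% reached that level in either direction. The count that fell was 1 and became 2 under spike-in scaling, where Atp5if1 joined Cox6a2. Against control 3 alone, chosen after seeing the data and fitted as 3 arrays against 1 that is assumed to vary like the LIPUS arrays, the median of the members was 0.18. The median of all tested was 0.07 there. Without 1 array in turn, 0 to 2 members rose and 1 to 2 fell; Cox4i2 needed control 1, LIPUS 1 and LIPUS 3, Cox6b2 every array but LIPUS 2, and Atp5if1 passed only without control 3. The median change of the members, 0.05, was −0.01 with each array minus its median and in the value table, 0.18 with slide as a fixed block and −0.30 under spike-in scaling, which moved the median of all genes from 0.03 to −0.32. Slide as a fixed block moved the median of all genes to 0.07. The median change of the members ranged from 0.02 to 0.09 with 1 array left out. With the value table for genes at the scanner limit it was −0.01, 0.15 with slide as a fixed block, and −0.12 to 0.03 with 1 array left out, lowest without control 3. The cause of these shifts was not tested. Cox6a2 minus Cox6a1 changed by −2.68 in the spot tables, where Cox6a1 is at the limit, and by −2.17 in the value table.

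Same-numbered control and LIPUS arrays did not deviate together (correlations 0.00107, 0.00948 and −0.0124 for numbers 1, 2 and 3), and the arrays did not each correlate best with their own number. These values gave no sign of pairing by number, but they cannot exclude a shared animal or culture. With the replicate block 1175 genes were called in all instead of 1449, and 1 member rose and 1 fell. Calls over all genes numbered 282 with slide as a fixed block, 655 without a filter, 3719 under spike-in scaling (197 higher) and 805 in the value table. With 1 array left out they ranged from 642 to 2168. Signal over background limited Cox8b, Cox8c and Uqcrq, and the scanner limit the 12 genes named above.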

Other observations

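The complex III gene Uqcrq was above background on 0 of 6 arrays, with brightness of 150, 142 and 141 in control and 72, 68 and 46 in LIPUS, and no fold was taken. Cox8b, the muscle form of subunit 8, was above background on 2 arrays and Cox8c, the testis form, on 1. Processed pseudogenes are many in this family: of 228 rat RefSeq symbols that meet the naming rule, 107 carry a pseudogene ending, and whether probes also bind their transcripts was not tested.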
